A study of Mus musculus with 8 samples.

Results

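The mitochondrial ribosomal protein genes were taken as the protein-coding genes of the deposited liver table whose mouse symbol begins with Mrpl or Mrps and a digit. There were 77 of them among 25690 genes: 48 named for the large subunit (Mrpl) and 29 for the small subunit (Mrps). All 77 had a mean of at least 1 FPKM (fragments scaled to transcript length and library depth) over the libraries, which put them among the 10250 genes tested. The libraries were RNA-seq of mouse liver, 4 from wildtype controls (numbered 1, 3, 10 and 12 in the titles) and 4 from mice with a hepatic knockout of Foxo1 (numbered 3, 9, 10 and 11). The labels give total RNA from liver tissue for both genotypes and no treatment. The sources used here do not give the age, sex or strain of the mice or the driver and alleles of the knockout. They also do not say that each library is a separate animal, so each p-value measures the spread from library to library, which may be technical.

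Mitochondria carry their own ribosome, built from RNAs encoded in mitochondrial DNA and from proteins encoded in the nucleus, made in the cytosol and imported. Its only messages are those of mitochondrial DNA, which encode core subunits of the respiratory chain and ATP synthase, and a liver cell, rich in mitochondria, needs the nuclear and the mitochondrial products in step. Some of its proteins descend from bacterial ribosomal proteins, and others were acquired by mitochondria and have no bacterial counterpart. Foxo1 encodes a forkhead transcription factor, excluded from the nucleus when insulin acts, and in liver it is known for control of glucose production.

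Promoters of nuclear genes for mitochondrial proteins are known for sites of NRF1 and of ETS factors such as GABP, so stretches before the start of 6 members are printed here to show what the motif counts further on refer to. They are RefSeq sequence of mouse build GRCm38.p6, 100 bases each, in the direction of the gene. Capitals mark the letters CGCATGCG (NRF1), CCGGAAG or its reverse complement (ETS), and GTAAACA (FoxO). The members were picked after their values were seen, from those whose printed stretch lies almost free of annotated exons: 3 that were lower in knockout (Mrpl9, Mrpl52, Mrpl58) and 3 that did not pass the test (Mrpl22, Mrps22, Mrpl44).
Mrpl9, chr3:94443236-94443335, plus strand: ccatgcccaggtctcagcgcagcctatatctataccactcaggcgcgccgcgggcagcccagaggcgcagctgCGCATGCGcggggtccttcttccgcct
Mrpl52, chr14:54426809-54426908, plus strand: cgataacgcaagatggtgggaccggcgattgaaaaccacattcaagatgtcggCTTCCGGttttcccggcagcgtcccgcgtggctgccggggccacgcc
Mrpl58, chr11:115403652-115403751, plus strand: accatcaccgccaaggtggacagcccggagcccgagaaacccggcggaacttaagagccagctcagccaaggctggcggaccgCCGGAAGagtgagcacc
Mrpl22, chr11:58171564-58171663, plus strand: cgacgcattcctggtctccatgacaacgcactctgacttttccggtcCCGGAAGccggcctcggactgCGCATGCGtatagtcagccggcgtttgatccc
Mrps22, chr9:98601680-98601779, minus strand: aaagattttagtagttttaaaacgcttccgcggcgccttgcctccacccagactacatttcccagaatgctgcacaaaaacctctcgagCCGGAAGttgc
Mrpl44, chr1:79775801-79775900, plus strand: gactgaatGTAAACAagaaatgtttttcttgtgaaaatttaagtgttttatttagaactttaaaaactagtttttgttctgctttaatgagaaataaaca
All but that of Mrpl44 end at the base before the start that RefSeq gives the gene. The Mrpl44 stretch runs from base 217 to base 118 before it.

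Foxo1 itself stood at 3.21, 3.01, 3.38 and 3.81 FPKM in wildtypes 1, 3, 10 and 12, and at 0.224, 0.267, 0.375 and 0.212 FPKM in knockouts 3, 9, 10 and 11. The 2 genotypes did not overlap. The spacing of the lowest values points to 26.8 to 34.9 M mapped fragments per library. At that depth the median member rested on about 1100 fragments per library and the lowest, Mrps6, on about 330. Hepatocyte markers were high in every library, with one exception: Alb, the albumin gene, is listed at 0 in knockout 10 and at 20877 to 27822 FPKM in the other libraries. Summed over the listed hepatocyte markers, of which 7 of 8 were in the table, the level was 41335 to 47381 FPKM in wildtype. In knockout it was 17474 to 46829 FPKM, the lowest being knockout 10. The sum of knockout 10 holds no Alb, while those of the other libraries do, so it cannot be compared with them. The 6 lymphocyte and neutrophil markers summed to 1.81 to 5.02 FPKM in wildtype, 2.58 and 5.80 FPKM in knockouts 9 and 10, and 55.8 and 135 FPKM in knockouts 3 and 11, mostly from S100a8 and S100a9, while Cd3e and Ms4a1 were at 0 in at least 1 library. Saa1, an acute phase gene, reached 28413 FPKM in knockout 3 and 33012 FPKM in knockout 11, against 78.3 to 573 FPKM elsewhere. Sinusoidal endothelium markers summed to 21.5 to 24.98 FPKM in wildtype and 17.6, 15.7, 25.3 and 17.1 FPKM in knockouts 3, 9, 10 and 11. In the same order, stellate cell markers were at 44.1 to 54.4 and at 22.9, 53.3, 37.7 and 27.6 FPKM. Cholangiocyte markers were at 11.3 to 16.7 and at 24.7, 20.7, 21.1 and 15.6 FPKM. Kupffer cell markers were at 52.8 to 71.7 and at 41.9, 59.8, 69.8 and 53.1 FPKM. Only the hepatocyte list held genes that passed the test, 2 of 7. In bulk tissue, fewer cells of a type and less RNA per cell cannot be told apart.

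As a group, the mitochondrial ribosomal protein genes stood lower in the knockout livers. Of the 77, 32 (41.6%) fell and none rose, at an adjusted p under 0.05 in limma's moderated test of log2(FPKM + 1) with Benjamini-Hochberg adjustment over all tested genes. The background was high: 11.7% of all 10250 tested genes fell and 2.7% rose in the same fit. The log2 change, on the log2(FPKM + 1) scale throughout, was below 0 for 72 of 77 members. Its median over the members was -0.31, with quartiles at -0.44 and -0.19, beside -0.08 over all tested genes. For 45 members (58.4%) every knockout library lay below every wildtype library, which held for 16.5% of all tested genes, and for no member did every knockout library lie above, which held for 4.83% of all tested genes. The 32 that fell were lower by 19.8% to 41.4% in mean FPKM.

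The summed level of the 77 genes was below each wildtype total in each knockout library. It was 3358, 3184, 3171 and 3448 FPKM in wildtypes 1, 3, 10 and 12 and 2375, 2466, 2692 and 2672 FPKM in knockouts 3, 9, 10 and 11. The groups did not overlap, and the mean was 3290 ± 136 FPKM (SD, n = 4) in wildtype and 2551 ± 156 FPKM (SD, n = 4) in knockout, 22.5% lower.

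**Figure D1:**
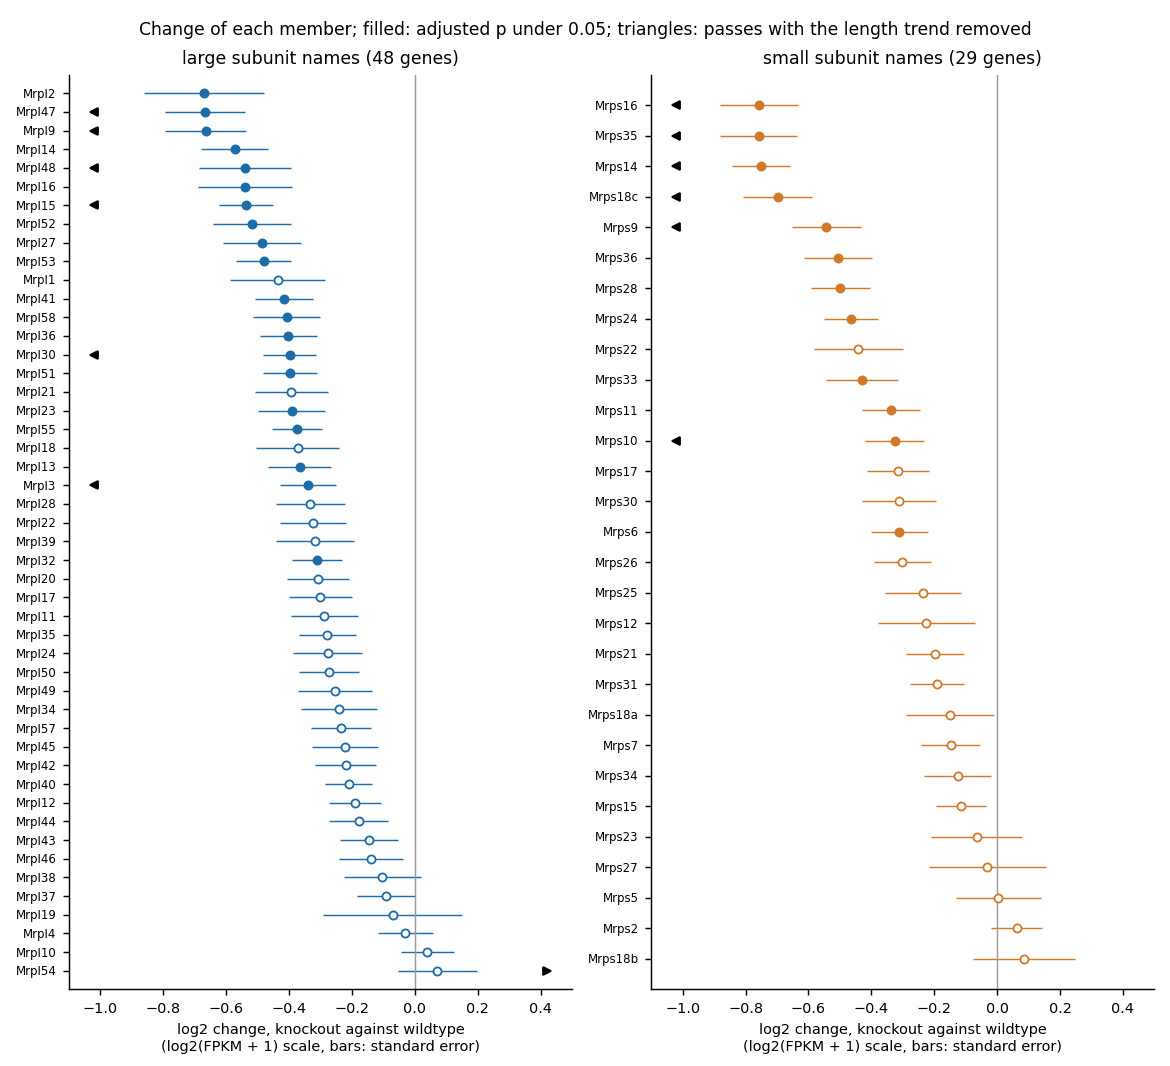
Log2 change (x axis, knockout against wildtype on the log2(FPKM + 1) scale) of each member, with its standard error as bars, large subunit names on the left and small subunit names on the right. Filled points passed limma's adjusted p of 0.05 (20 of 48 and 12 of 29), left-pointing triangles mark the 12 that also passed as lower with the length trend removed, and the right-pointing one marks Mrpl54.

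As deposited, the 2 subunits had nearly the same shares and medians. Of the large subunit genes 20 of 48 (41.7%) fell, with a median log2 change of -0.32. Of the small subunit genes 12 of 29 (41.4%) fell, with a median of -0.31, beside 11.7% of all tested genes. Non-overlapping lower knockout values were found for 29 large (60.4%) and 16 small subunit genes (55.2%), beside 16.5% of all tested genes. Summed FPKM of the large subunit genes was 23.0% lower in knockout (2198 ± 89.5 against 1693 ± 109, SD, n = 4 each). That of the small subunit genes was 21.5% lower (1092 ± 47.8 against 858 ± 49.7, SD, n = 4 each). With the length trend removed, as described below, 6 of 48 large (12.5%) and 6 of 29 small subunit genes (20.7%) fell. In that fit 5.85% of all genes fell. The difference between the subunits was not tested.

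As deposited, the library medians moved together as well. Measured from the wildtype mean, the large subunit median log2 difference was -0.41, -0.37, -0.23 and -0.31 in knockouts 3, 9, 10 and 11, and the small subunit median was -0.41, -0.30, -0.25 and -0.28. Both were lowest in knockout 3. The large minus the small subunit median ran from -0.074 to 0.020 in the knockout libraries. In the wildtype libraries it ran from -0.026 to 0.031, so these ranges overlapped. With the length trend removed, both subunit medians were lowest in knockout 9, at -0.19. The large minus the small subunit median then ran from -0.058 to 0.084 in knockout and from -0.011 to 0.028 in wildtype. The names follow history rather than structure in 3 cases. Mrps18a and Mrps30 encode proteins of the large subunit, and the Mrps36 product is a component of the 2-oxoglutarate dehydrogenase complex. Sorted by structure, 20 of 50 large and 11 of 26 small subunit genes fell.

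**Figure D2:**
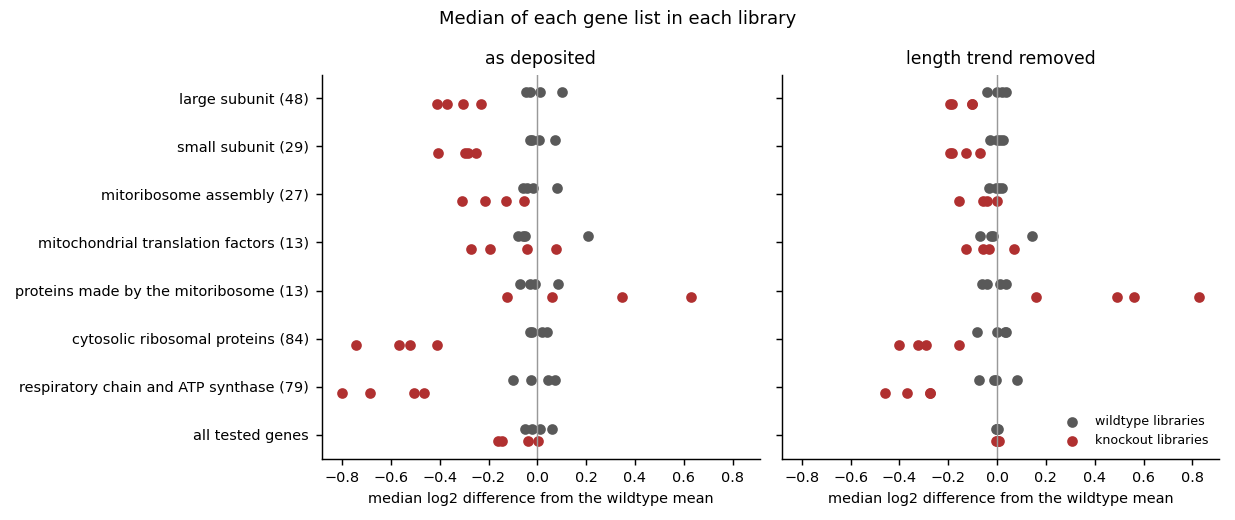
Median log2 difference from the wildtype mean (x axis) of each gene list (y axis, number of tested genes in brackets) in each of the 4 wildtype and 4 knockout libraries, as deposited (left) and with the length trend removed (right). Large and small subunit medians of the knockout libraries lie between -0.41 and -0.23 on the left and between -0.19 and -0.07 on the right.

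The 4 largest log2 changes were those of small subunit genes. Mrps16, a protein of the small subunit body with a bacterial counterpart, was at 66.7, 70.1, 58.3 and 66.5 FPKM in wildtypes 1, 3, 10 and 12 and at 35.5, 31.3, 44.7 and 42.5 FPKM in knockouts 3, 9, 10 and 11. Every knockout library was below every wildtype library, and the log2 change was -0.76 (SE 0.12, limma adjusted p = 0.00621). Mrps35, which has no bacterial counterpart, was at 50.1, 49.4, 49.9 and 60.0 FPKM in wildtype and at 25.5, 33.7, 35.4 and 28.2 FPKM in knockout, in the same order of libraries. Knockout 3 was the lowest and the groups did not overlap, with a log2 change of -0.76 (SE 0.12, limma adjusted p = 0.00596). Mrps14, a protein of the small subunit head, was at 44.5, 45.4, 39.7 and 46.4 FPKM in wildtype and at 23.0, 27.5, 27.6 and 25.04 FPKM in knockout. It had the smallest adjusted p of the members, 0.00311 in limma, at a log2 change of -0.75 (SE 0.093).

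Mrps18c was another strong case. This gene encodes the small subunit's own form of a bacterial protein of which mammals keep 3 versions, and it was at 88.1, 72.0, 76.1 and 95.0 FPKM in wildtype and at 46.0, 48.7, 51.3 and 55.9 FPKM in knockout. The groups were well apart (log2 change -0.70, SE 0.11, limma adjusted p = 0.00589). Its relatives Mrps18a and Mrps18b did not pass. Mrps18a was at 35.4 ± 2.70 FPKM in wildtype and 32.2 ± 6.78 FPKM in knockout (SD, n = 4 each), and the knockout values, 25.9, 28.8, 41.5 and 32.7 FPKM, spread across the wildtype range (log2 change -0.15, limma adjusted p = 0.520). Mrps18b was at 31.5 ± 2.1 FPKM in wildtype and 34.2 ± 8.31 FPKM in knockout (SD, n = 4 each), with knockouts 9 and 10 at 42.7 and 39.3 FPKM and knockout 3 at 24.6 FPKM (log2 change 0.09, limma adjusted p = 0.764). The difference between the 3 relatives was not tested.

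Mrps9, a small subunit protein of bacterial descent, was at 16.6, 14.1, 17.2 and 17.4 FPKM in wildtype and at 9.62, 11.3, 12.6 and 10.02 FPKM in knockout, again without overlap (log2 change -0.54, SE 0.11, limma adjusted p = 0.0125). Mrps28 (-0.50), Mrps24 (-0.46), Mrps33 (-0.43), Mrps11 (-0.34), Mrps10 (-0.33) and Mrps6 (-0.31) also fell, with limma adjusted p between 0.00979 and 0.0488. Mrps36 was at 19.9, 24.7, 24.01 and 25.2 FPKM in wildtype and at 15.2, 14.7, 16.4 and 18.5 FPKM in knockout (log2 change -0.51, SE 0.11, limma adjusted p = 0.0150). The table also holds a pseudogene, Mrps36-ps1, at 7.80 ± 0.489 FPKM in wildtype and 5.29 ± 0.430 FPKM in knockout (SD, n = 4 each). It fell as well (log2 change -0.49, SE 0.088, limma adjusted p = 0.00910). Fragments of Mrps36 and the pseudogene may have been shared, so the Mrps36 values are uncertain.

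In the large subunit, Mrpl47, Mrpl9 and Mrpl15 fell under every alternative run other than the replicate block. Mrpl47, which lies near the exit of the peptide tunnel, was at 22.3, 23.1, 22.1 and 19.5 FPKM in wildtype and at 10.7, 16.7, 13.1 and 13.4 FPKM in knockout. Knockout 9 was its highest knockout library and still below wildtype 12 (log2 change -0.67, SE 0.13, limma adjusted p = 0.0105). Mrpl9 was at 21.95, 20.2, 20.5 and 23.8 FPKM in wildtype and at 10.8, 14.4, 16.4 and 11.97 FPKM in knockout (log2 change -0.67, SE 0.13, limma adjusted p = 0.0110). Mrpl15 varied little in wildtype, at 71.4, 72.3, 71.2 and 70.7 FPKM, and was at 43.5, 48.0, 51.7 and 52.9 FPKM in knockout. Its groups lay far apart relative to that spread (log2 change -0.54, SE 0.086, limma adjusted p = 0.00591).

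Among the other large subunit genes that fell, Mrpl2 had the same log2 change with a wider spread. Mrpl2, whose protein sits by the peptidyl transferase centre, was at 107, 83.3, 88.1 and 132 FPKM in wildtype and at 47.6, 67.1, 83.1 and 59.4 FPKM in knockout. Knockout 10 reached almost to wildtype 3, and the limma adjusted p was 0.0458 at a log2 change of -0.67 (SE 0.19). Leaving out knockout 10 kept the call of Mrpl2, and leaving out any other library ended it. Mrpl14, contacted by the assembly factor Malsu1, was at 113, 102, 103 and 125 FPKM in wildtype and at 70.1, 67.1, 75.1 and 84.1 FPKM in knockout (log2 change -0.57, SE 0.10, limma adjusted p = 0.00967). Mrpl48 (-0.54), Mrpl16 (-0.54) and Mrpl52 (-0.52) passed as well, and in Mrpl16 knockout 10, at 24.98 FPKM, lay above wildtype 1, at 22.6 FPKM. Mrpl58, a peptidyl-tRNA hydrolase built into the large subunit, was at 57.3 ± 7.58 FPKM in wildtype and 42.7 ± 1.94 FPKM in knockout (SD, n = 4 each), a log2 change of -0.41 (limma adjusted p = 0.0335).

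**Figure D3:**
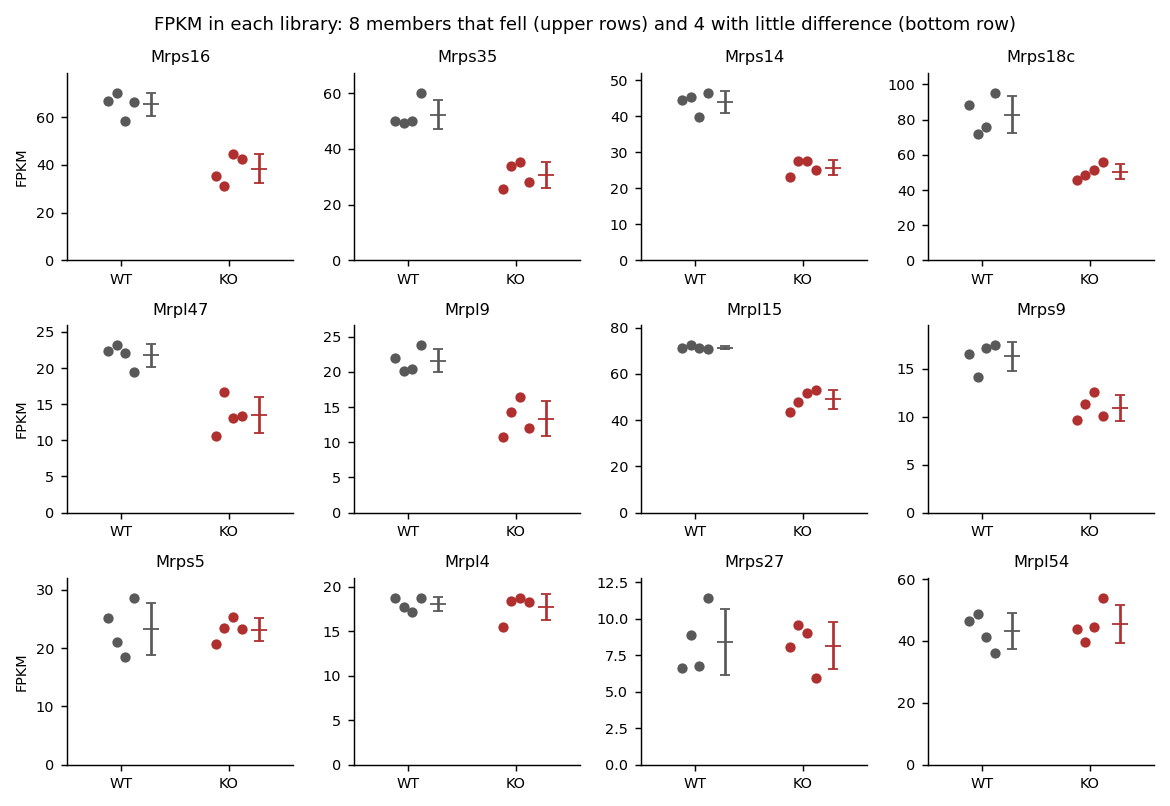
FPKM (y axis, from 0) of 12 members in each wildtype (WT, grey) and knockout (KO, red) library, drawn left to right as 1, 3, 10, 12 and 3, 9, 10, 11, with the mean and SD beside the points. In the upper 2 rows the knockout points of the 8 genes lie below all wildtype points, and in the bottom row those of Mrps5, Mrpl4, Mrps27 and Mrpl54 overlap the wildtype points.

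At the other end, 45 members did not pass, 40 of them with a log2 change below 0. The values nearest 0 were those of Mrps5 (0.0041, limma adjusted p = 0.990), Mrpl4 (-0.03, limma adjusted p = 0.852) and Mrps27 (-0.03, limma adjusted p = 0.931), and the sign of each of these depended on the scaling or the libraries used. Mrps5, a small subunit protein near the decoding site, was at 25.2, 21.04, 18.6 and 28.6 FPKM in wildtype and at 20.7, 23.4, 25.3 and 23.3 FPKM in knockout, so the knockout values lay inside the wildtype range. Mrpl4, a protein of the tunnel wall, was at 18.7, 17.8, 17.2 and 18.8 FPKM in wildtype and at 15.5, 18.4, 18.7 and 18.3 FPKM in knockout. Only knockout 3 lay below the wildtype range. Mrps27, a protein with repeats of the kind that bind RNA, was at 6.60 to 11.5 FPKM in wildtype and 5.93 to 9.59 FPKM in knockout. Mrpl10 (0.04), Mrps2 (0.06), Mrpl54 (0.07) and Mrps18b (0.09) were the others above 0, none past the threshold.

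Mrpl12 and Mrpl10 form the stalk that recruits translation factors, and neither passed. Mrpl12 was at 101 ± 5.74 FPKM in wildtype and 88.7 ± 4.21 FPKM in knockout (SD, n = 4 each), a log2 change of -0.19 (limma adjusted p = 0.156) that turned above 0 with quantile normalization (0.04) and with the length trend removed (0.02). Mrpl10 was at 21.4 ± 1.27 FPKM in wildtype and 22.1 ± 1.38 FPKM in knockout (SD, n = 4 each). Mrps30 was at 12.1, 14.5, 14.0 and 13.2 FPKM in wildtype and at 8.92, 12.98, 11.1 and 9.87 FPKM in knockout, where knockout 9 overlapped the wildtype range (log2 change -0.31, limma adjusted p = 0.111).

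Levels of the members spread over a 42.3-fold range. FPKM is a level per transcript length, so genes can be set side by side roughly. The length trend, overlapping genes and shared fragments, described in other paragraphs, limit this order. Mrpl52 (177 FPKM, mean over all 8 libraries), Mrps21 (139), Mrpl17 (120) and Mrpl12 (95.0) were the highest, and Mrps26 (4.18), Mrpl19 (4.85), Mrpl35 (6.83) and Mrpl45 (7.59) the lowest. Mrpl45 encodes the protein that holds the ribosome at the inner membrane. Mrpl19 was at 2.79 to 7.28 FPKM over the 8 libraries, so neighbours at the low end do not differ beyond their spread. Of the 77, 45 lay within 2-fold of the median of 29.9 FPKM. The order of the genes was almost the same in both genotypes (Spearman's rho 0.980 between mean wildtype and mean knockout levels across 77 genes, which share libraries and lengths).

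**Figure D4:**
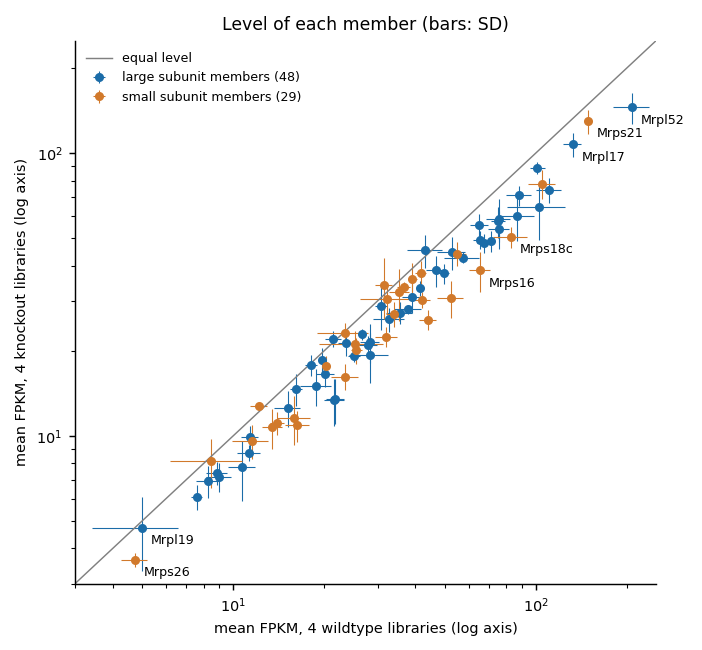
Mean FPKM of each member in the 4 knockout libraries (y axis, log) against the 4 wildtype libraries (x axis, log), with SD as bars and the line of equal level. Most points lie below the line along the whole range, from Mrps26 at 4.73 FPKM to Mrpl52 at 208 FPKM in wildtype.

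Members with a bacterial counterpart and members found in mitochondria alone were described side by side, with classes assigned from general knowledge of the structures. Mrps18a and Mrps18b, relatives of a bacterial protein whose own place is taken by Mrps18c, were put with those without a counterpart, as their positions in the ribosome are not the bacterial one. Of the 45 with a counterpart 23 (51.1%) fell, with a median log2 change of -0.34. Of the 31 without one 8 (25.8%) fell: Mrps35, Mrpl48, Mrpl52, Mrpl53, Mrps33, Mrpl41, Mrpl58 and Mrpl51, and the median was -0.24. With Mrps18a and Mrps18b moved to the other class, an alternative added after the data were seen, the counts were 23 of 47 (48.9%) and 8 of 29 (27.6%). With the length trend removed 10 of 45 (22.2%) and 2 of 31 (6.45%) fell, beside 5.85% of all genes in that fit, so the share of the second class was near the background. The order was the same inside each subunit by structure, 14 of 29 against 6 of 21 in the large and 9 of 16 against 2 of 10 in the small subunit. The difference between the classes was not tested. Median transcript lengths were 1708 and 2114 bases, and median wildtype levels 35.5 and 26.6 FPKM.

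Transcript length bears on these counts, since short genes, pooled over all tested genes, tended lower in the knockout libraries. The pool includes the members and the cytosolic ribosomal and respiratory chain genes described below. The trend without these families was not tested. Among all tested genes with a length, 36.1% of the shortest decile (longest annotated transcript of 85 to 1155 bases) fell, against 2.86% of the longest decile, and Spearman's rho of log2 change with length was 0.26 over 10149 genes, a description, since genes are not replicates. Of the 77 members 26 lie in that shortest decile, and 15 of these fell. Weighting the share in each decile of length by the members' lengths gave 19.2% for the whole set, 19.0% for the large and 19.5% for the small subunit. With the longest coding transcript as the length the weighted share was 23.8% (22.8% large, 25.6% small), and with the coding sequence 22.9% (23.4% large, 22.1% small). The members' own share was 41.6%.

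Within the family, the relation of length and change differed with the measure of length, given here as a description. Spearman's rho of log2 change with transcript length was 0.02 across the 77 members. With coding sequence length it was 0.23 (0.14 in the large and 0.37 in the small subunit), beside 0.30 over all tested genes, and with GC content 0.33. By decile of transcript length, the members' share lay near that of all genes in deciles 2 and 3 and above it in deciles 4 to 8. Each of these deciles holds few members. In decile 2, 1 of 9 members fell beside 18.0% of all genes, and in decile 3, 1 of 7 beside 15.2%. In deciles 4, 5 and 6 the counts were 3 of 8, 3 of 7 and 2 of 5, beside 10.4%, 10.3% and 8.78%. In deciles 7 and 8 (3571 to 4872 bases) 3 of 5 members fell in each, beside 5.71% and 4.73%, and in deciles 9 and 10 it was 1 of 4 and 0 of 1, beside 4.53% and 2.86%.

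**Figure D5:**
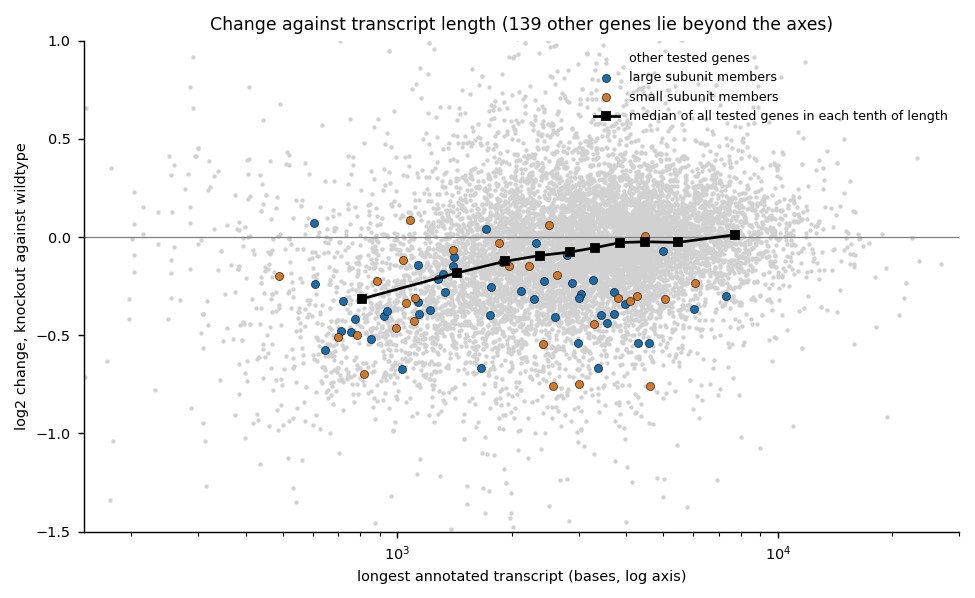
Log2 change in knockout (y axis) against the longest annotated transcript (x axis, bases, log) for members of the large (blue) and small (orange) subunit and other tested genes (grey), with the median of all tested genes in each decile of length (black squares). The black line rises from -0.31 in the shortest decile to 0.01 in the longest, while the members reach -0.76 at 4607 bases (Mrps35).

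With the trend along transcript length removed from each library by symmetric loess, 12 members fell and 1 rose, beside 5.85% lower and 4.88% higher of 10149 genes. The 12 were Mrpl3, Mrpl9, Mrpl15, Mrpl30, Mrpl47 and Mrpl48 of the large and Mrps9, Mrps10, Mrps14, Mrps16, Mrps18c and Mrps35 of the small subunit, and each had also fallen without the removal. The median log2 change was then -0.14 in both subunits, with 56 of 77 below 0, and 0.01 over all genes. Mrps35 kept a log2 change of -0.72 (limma adjusted p = 0.00785) and Mrps14 one of -0.67 (limma adjusted p = 0.00552).

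The removal counts long members as lower more readily than short ones. Of the 15 members that fell among the shortest decile, 1 (Mrps18c, 820 bases) still fell, while Mrpl14 (645 bases), Mrpl52, Mrps24 and Mrps28 no longer passed, and across members rho of the adjusted change with length was -0.52. Mrpl54, of 604 bases, was at 46.5, 48.8, 41.3 and 36.1 FPKM in wildtype and at 43.8, 39.6, 44.4 and 54.0 FPKM in knockout. These overlap, and its log2 change of 0.07 (limma adjusted p = 0.747) became 0.45 (limma adjusted p = 0.0386) when the trend was taken out. With coding sequence length in place of transcript length, an alternative added after the data were seen, 8 members fell and none rose, beside 5.77% lower and 4.71% higher of 9619 genes. With the longest coding transcript 13 fell and Mrpl54 alone rose, beside 5.42% and 4.45%. With the coding sequence length the adjusted change was less tied to length, and rho with that length was -0.16 across the members.

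Of the 32 members that fell, 15 fell in each of the 8 fits that leave out a library. Mrpl2, Mrpl3, Mrps6, Mrps10 and Mrps11 passed in 1 of the 8, Mrpl13, Mrpl16, Mrpl23, Mrpl27, Mrpl32, Mrpl48 and Mrps33 in 2, Mrpl58 in 3, Mrpl36 and Mrpl52 in 5, and Mrpl41 and Mrpl51 in 7. Their highest limma adjusted p over those fits ran from 0.0513 (Mrpl51) to 0.138 (Mrps10). Apart from the fits with a replicate block, 7 members fell under each of the 23 alternatives run: Mrpl9, Mrpl15, Mrpl47, Mrps14, Mrps16, Mrps18c and Mrps35. Mrps9 fell under 22 of them, failing without knockouts 3 and 11 together (limma adjusted p = 0.0699). The matching shares over all tested genes are not given here, so these counts of repeated calls have no background beside them. The number of members that fell depended on the library set: it was 17 without wildtype 1, 20 without wildtype 3, 20 without wildtype 10, 19 without wildtype 12 and 17 without knockout 3. The share of all tested genes that fell was also lower in those fits, at 5.84%, 8.74%, 7.26%, 7.27% and 7.07% in the same order. Without both knockout 3 and knockout 11, the libraries high in Saa1, S100a8 and S100a9, 16 members fell, beside 6.4% of all tested genes. The 16 were 8 of 48 large and 8 of 29 small subunit genes, and the member median was -0.27. Scaling by median ratios gave 12 members lower and quantile normalization 11, beside 7.02% and 6.36% of all genes, and no member higher, beside 4.73% and 4.59%. Of all genes called, the lower share was 81.2% as deposited, 59.8% and 58.1% with those scalings and 54.5% with the length trend removed.

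Motif letters in the promoters were counted beside those of all tested protein-coding genes. RefSeq windows were found for 68 of the 77 members. The 250 bases before the start were searched on both strands, with 1 window a gene, that of the start farthest upstream. CGCATGCG (NRF1) was in 7 (10.3%), beside 3.49% of 7673 tested protein-coding genes. CCGGAAG (ETS) was in 16 (23.5%) beside 15.2%, and AAGATGGC (YY1) in 4 (5.88%) beside 2.19%. At least 1 of the 3 was in 35.3% beside 19.8%, a difference that was not tested. Among the 28 windowed members that fell 11 (39.3%) held one, and among the 40 that did not pass 13 (32.5%). Mrpl2, Mrpl48 and Mrps16, which all fell, have further RefSeq starts, and no member that did not pass has one. When every window was searched, ETS letters were also found before a start of Mrpl48 inside the gene and before one of Mrps16. This made the first count 13 (46.4%), from a wider search than that of the members that did not pass. With every window the share was 22.2% of tested protein-coding genes and 38.2% of members. The FoxO letters GTAAACA were in 2 members (2.94%), Mrpl40 and Mrpl44, beside 2.24%, and neither passed the test. The stretches printed above were picked with these calls known, so they are examples and bear on no relation of motif and call. Mrpl9 with NRF1 letters fell, while Mrpl22 with both NRF1 and ETS letters did not pass (log2 change -0.32, limma adjusted p = 0.0706).

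Many members share their start region with another gene. A protein-coding neighbour began within 1000 bases on the opposite strand, head to head, for 18 members (23.4%), beside 11.2% of tested protein-coding genes. Of the 14 neighbours tested 2 fell, Psma2 beside Mrpl32 and Fau beside Mrpl49, near the 11.7% of all tested genes that fell. The median log2 change of the 14 was -0.10. With the length trend removed Psma2 passed (limma adjusted p = 0.0111) and Fau did not (limma adjusted p = 0.0769). Mrps18c starts 29 bases from Helq, and Mrpl30 starts 66 bases from Mitd1, which did not pass (log2 change -0.18, limma adjusted p = 0.308). The 77 genes lie on 17 chromosomes, 11 of them on chromosome 11.

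The sources used here do not say whether the counting used strand, so values of overlapping genes on opposite strands are uncertain. This touches 16 members, 5 of which fell: Mrpl14, Mrpl36, Mrpl47, Mrpl48 and Mrps11. Mrpl47 overlaps Ndufb5, at 132 FPKM in knockout and itself lower (log2 change -0.57, limma adjusted p = 0.0100), and Mrpl36 overlaps Ndufs6 (log2 change -0.71, limma adjusted p = 0.00450). The partners of Mrpl14 (Tmem63b, -0.04) and Mrpl48 (Rab6a, -0.0049) did not pass, and Mrps11 overlaps Mrpl46 (-0.14), another member.

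Other genes of mitochondrial translation were read from lists beside the same background of 11.7% lower. Of 5 mitoribosomal proteins with other names 3 fell: Chchd1 (78.6 ± 6.70 FPKM in wildtype, 50.2 ± 1.28 in knockout, SD, n = 4 each), Aurkaip1 and Dap3, with a list median of -0.31. None of them passed with the length trend removed. Of 13 translation factors 1 fell, Tsfm, the exchange factor of the elongation factor Tufm (log2 change -0.39, limma adjusted p = 0.0367), and the median was -0.09. With the length trend removed none of the 13 fell, Tsfm included (limma adjusted p = 0.221), and the median was 0.00077. Tufm, chosen for its role after its values were seen, was at 32.5 ± 3.61 FPKM in wildtype and 34.6 ± 3.23 FPKM in knockout (SD, n = 4 each).

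Of 27 tested assembly factors 3 fell: Fastkd2, a protein of mitochondrial RNA granules (11.7 ± 1.41 against 6.52 ± 1.03 FPKM, SD, n = 4 each), Ngrn and Malsu1. Of 19 tested mitochondrial tRNA synthetase and amidotransferase genes 4 fell: Lars2, Nars2, Yars2 and Fars2. Of 16 genes of mitochondrial DNA expression 4 fell: Slirp, which stabilizes mitochondrial messages with Lrpprc (141 ± 14.2 against 80.0 ± 2.53 FPKM, SD, n = 4 each), Polg2, Ssbp1 and Polg, the last 3 in mitochondrial DNA replication. The medians were -0.18, -0.14 and -0.11. With the length trend removed, beside 5.85% of all genes, 1 assembly factor (Fastkd2), 3 synthetase genes and 4 genes of mitochondrial DNA expression fell, with medians of -0.05, -0.06 and 0.0054. Left-out libraries mattered to some of these calls: Dap3 and Fars2 passed in 1 of the 8 fits that leave out a library, Tsfm and Yars2 in 2, Polg in 3, Malsu1 and Ngrn in 5, and Aurkaip1 in 6, with limma adjusted p reaching 0.115. The difference of any of these lists from the ribosomal genes was not tested.

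Among 8 tested regulators none fell. Myc rose, from 0.624 ± 0.156 to 4.06 ± 2.89 FPKM (SD, n = 4 each), at a log2 change of 1.44 (limma adjusted p = 0.0346). Its knockout values were 6.94, 1.16, 6.10 and 2.02 FPKM in knockouts 3, 9, 10 and 11, and the call held without knockout 9 or 11 but not without any one of the other 6 libraries. Yy1, Gabpb1 and Pprc1 had log2 changes between -0.17 and -0.11 with limma adjusted p of at least 0.434. The messages that the mitoribosome translates are encoded in mitochondrial DNA. Of 13 mitochondrial protein-coding genes none fell and 2 rose as deposited, mt-Nd5 (log2 change 0.53, limma adjusted p = 0.0385) and mt-Co1 (log2 change 0.49, limma adjusted p = 0.0446), beside 2.7% higher of all genes. The call of mt-Nd5 held in 2 and that of mt-Co1 in 1 of the 8 fits that leave out a library. Their list median was 0.23, and the library medians differed widely, at 0.06, 0.63, 0.35 and -0.12 in knockouts 3, 9, 10 and 11, of which those of knockouts 3 and 11 were not above the wildtype range of -0.07 to 0.09. As deposited 3 of the 13 had a log2 change below 0, the lowest being mt-Nd3 (-0.53, limma adjusted p = 0.114). With the length trend removed 5 of 13 rose, beside 4.88% of all genes, with a median of 0.58. These genes are short (median 784 bases), and the removal shifts short genes upward: mt-Nd6 (519 bases) went from 0.42 to 0.81. Without knockouts 3 and 11, and with no length trend removed, 6 of the 13 rose, beside 1.94%, with a median of 0.52.

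Nuclear genes for the partners of those products and for the cytosolic ribosome gave the following values. Of 79 tested respiratory chain and ATP synthase genes 66 fell (median log2 change -0.60), and of 84 tested cytosolic ribosomal protein genes 70 fell (median -0.57). With the length trend removed these counts were 43 and 30, with medians of -0.36 and -0.29, against 12 of 77 and -0.14 for the mitoribosomal genes. Median wildtype levels were 242, 520 and 32.1 FPKM, and median transcript lengths 1129, 1048 and 1849 bases in the same order. The difference between the lists was not tested.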

How the data were processed

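Liver RNA of 4 wildtype and 4 hepatic Foxo1 knockout libraries was sequenced. The submitters' processing notes name TopHat2 2.1.0, HTSeq, Cufflinks 2.2.1 and build mm10. The authors deposited 1 table of FPKM, whose unit is inferred from the values and tools; the table gives no counts, and depth was estimated from its lowest values. Symbols, positions and lengths came from GENCODE M21 (24807 of 25690 identifiers matched), promoters from RefSeq on GRCm38.p6.

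Genes whose FPKM averaged at least 1 were tested with limma 3.58.1 in R 4.3.3 on log2(FPKM + 1), genotype as the only term, with moderated variances and a mean trend, two-sided, and p-values adjusted over all 10250 genes at 0.05. The length trend was removed from each library by symmetric loess of span 0.5 along log2 length of the longest transcript. Scripts were tested on simulated data. The members and lists were chosen with earlier results of these data known. Members named were the 8 largest changes per subunit, the smallest, the highest and lowest levels, those passing with the length trend removed, 7 set genes and outlying values, and up to 4 per context list by adjusted p. Values were already known when promoter examples, neighbouring and overlapping genes, Tufm and further members were picked. The alternatives were pseudocounts, filters, scalings, length and GC trends, variance models, library weights, a replicate block and left-out libraries.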

Additional observations from a re-analysis of the deposited data

Results flagged for a closer look

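In 9 of 154 member-by-genotype groups (5.84%) 1 library lay apart from the other 3 by more than Dixon's 95% limit, and chance flags about 1 in 20. In knockout these were Mrpl13, high in knockout 11 (30.8 FPKM), Mrpl16, high in knockout 10 (24.98 FPKM), and Mrpl24 and Mrpl4, low in knockout 3 (31.2 and 15.5 FPKM). In wildtype they were Mrpl50, Mrpl57 and Mrps35, high in wildtype 12 (22.2, 9.90 and 60.0 FPKM), Mrpl38, high in wildtype 10 (33.0 FPKM), and Mrps2, low in wildtype 1 (10.96 FPKM).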

How the results depend on the processing

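The table holds no counts, so no count model was run. The counts of genes that fell depend on scaling, length and the library set; the member median stayed below that of all tested genes in all settings run. For all tested genes, 1195 lower and 277 higher became 720 and 485 with median-ratio scaling, 652 and 470 with quantile normalization, 594 and 495, 694 and 458, 521 and 428, and 555 and 453 with the length trend removed (symmetric loess, least-squares loess, longest coding transcript, coding sequence), 550 higher with the GC trend removed, and 656 lower without knockouts 3 and 11. Members lower went from 32 (20 large, 12 small) to 12 (6, 6), 11 (5, 6), 12 (6, 6), 15 (9, 6), 13 (8, 5), 8 (3, 5), 17 (10, 7) and 16 (8, 8) in the same order of settings, with 1 higher in the first 3 length settings. With the GC trend removed 8.04% of all genes fell. Without a filter 13 large subunit genes fell, beside 4.82% of all genes in that fit. Leaving out 1 library at a time gave 599 to 1294 lower and 102 to 360 higher of all genes. It gave 17 to 29 members lower, 9 to 20 large and 8 to 11 small subunit genes. These fits also had fewer libraries, and the cause of the differences was not tested.

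The large subunit median (-0.32) was -0.22 and -0.20 with the 2 scalings, -0.14, -0.17, -0.11 and -0.098 in the 4 length settings and -0.22 with the GC trend removed. The small subunit median (-0.31) was -0.24 with a pseudocount of 5, -0.21 and -0.16 with the scalings, -0.14, -0.21, -0.050 and -0.082 in the length settings, -0.20 with the GC trend removed, -0.23 without knockouts 3 and 11, and -0.33 to -0.25 leaving out 1 library.

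Numbers 3 and 10 occur in both genotypes, but same-numbered libraries did not deviate together (correlations of -0.0079 and 0.022), so the number is not taken as a pairing. A replicate block left 1 gene lower and 1 higher of all genes and 0 members (0 large, 0 small) lower, with or without the length trend removed, where the subunit medians were -0.12 and -0.095. Only 4 libraries inform that contrast.

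Some members that passed in no setting changed sign. Mrpl12, Mrpl38, Mrpl4, Mrps18a, Mrps21 and Mrps27 were at 0.040, 0.051, 0.077, 0.018, 0.018 and 0.033 with quantile normalization, and Mrpl19, Mrpl38, Mrpl4 and Mrps27 at 0.017, 0.0015, 0.073 and 0.065 with median-ratio scaling. With the length trend removed, Mrpl12, Mrpl38, Mrpl4, Mrps21 and Mrps27 were at 0.025, 0.091, 0.075, 0.21 and 0.10 (symmetric loess). Least-squares loess put Mrpl38, Mrpl4, Mrps21 and Mrps27 at 0.068, 0.057, 0.14 and 0.089. The longest coding transcript put Mrpl12, Mrpl38, Mrpl4, Mrps18a, Mrps21 and Mrps27 at 0.028, 0.091, 0.19, 0.20, 0.23 and 0.088, and the coding sequence put Mrpl12, Mrpl19, Mrpl4, Mrpl57, Mrps18a, Mrps21 and Mrps27 at 0.0039, 0.061, 0.10, 0.12, 0.049, 0.20 and 0.039. GC removal put Mrpl19, Mrpl4 and Mrps27 at 0.037, 0.032 and 0.043, and library weights Mrps27 at 0.063. Without knockouts 3 and 11, Mrpl19, Mrpl38, Mrpl4 and Mrps27 were at 0.18, 0.10, 0.037 and 0.16. The replicate block put Mrpl19, Mrps18b and Mrps27 at 0.29, -0.016 and 0.12, and with the length trend removed Mrpl12, Mrpl19, Mrpl38, Mrpl4, Mrpl45, Mrps18a, Mrps21 and Mrps27 at 0.036, 0.31, 0.092, 0.050, 0.0071, 0.034, 0.13 and 0.23. Leaving out 1 library, Mrpl19 ran from -0.18 to 0.11, Mrpl4 from -0.056 to 0.029, Mrps18b from -0.029 to 0.23, Mrps27 from -0.13 to 0.11 and Mrps5 from -0.10 to 0.10.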
